A study of Mus musculus with 4 samples.

Results

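The genes described are 10 oxidative stress and metallothionein genes, Hmox1, Nqo1, Gclc, Gclm, Txnrd1, Srxn1, Gsr, Mt1, Mt2 and Prdx1, measured in mouse embryo fibroblasts (MEFs) with and without STMN1, the gene for the microtubule-destabilizing protein stathmin. Their measurements are the non-control array spots that carry one of these gene names, and they are 10 of 14979 named genes tested. The names were chosen with earlier results of these data known. Together they had 15 probes, each a 60-mer, on 24 spots of each array. MEFs were isolated from single mid-gestation embryos of matings between heterozygous C57BL/6 mice, and the STMN1-/- embryos carried an allele disrupted by a neomycin cassette while STMN1+/+ embryos kept the intact gene. Both genotypes were grown untreated in the same serum-containing medium and discarded after a few passages. Each of the 4 Agilent 2-color arrays carried labelled RNA from a pair of genotypes, and the dyes were swapped so that STMN1-/- was the Cy3 channel for replicates 1 and 2 but the Cy5 channel for replicates 3 and 4. Which embryo's cells, or which extract, went onto an array is not given in the labels, and the p-values therefore cover array-to-array spread that may be technical only.

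Most of these genes belong to the antioxidant response controlled by the transcription factor NRF2 (Nfe2l2). In unstressed cells the adaptor protein KEAP1 holds NRF2 for degradation. Oxidants and electrophiles modify KEAP1, and NRF2 then binds, together with a small MAF protein, to the antioxidant response element (ARE) of genes for quinone reduction, glutathione synthesis, thioredoxin reduction and heme breakdown, where BACH1 can compete as a repressor. Metallothioneins are small cysteine-rich proteins that bind zinc and copper, and their genes respond to metal through the factor MTF1, which binds metal response elements (MREs).

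The ratio of STMN1-/- over STMN1+/+ signal is given on the log2 scale, so that a value of 1 is a doubling, and a probe is called changed where its mean over the arrays differed from 0 with an adjusted p under 0.05 in limma. With each gene represented by its brightest probe, 6 of the 10 genes were called. Nqo1, Gclm, Txnrd1 and Hmox1 were down-regulated in STMN1-/- MEFs, by 1.96, 1.39, 1.27 and 1.22 fold. Mt2 and Mt1 were up-regulated, by 1.74 and 1.5 fold. Gclc, Gsr, Srxn1 and Prdx1 were not called. Among all named genes 25.8% were called, 12.3% lower and 13.4% higher in STMN1-/- MEFs, so that a sizeable share of any set of genes passes the test on these arrays. The median log2 ratio of the 10 genes was -0.17, beside 0.00 for all tested probes. Because the genes were chosen with earlier results of these data known, their share called and their median are descriptive only. On every array the 15 probes were well above background in both channels, and none was saturated. Of all tested probes, 53.2% had log2 ratios of both signs across the arrays. One sign on every array is therefore common on these arrays, and such statements below are to be read beside that share.

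**Figure D1:**
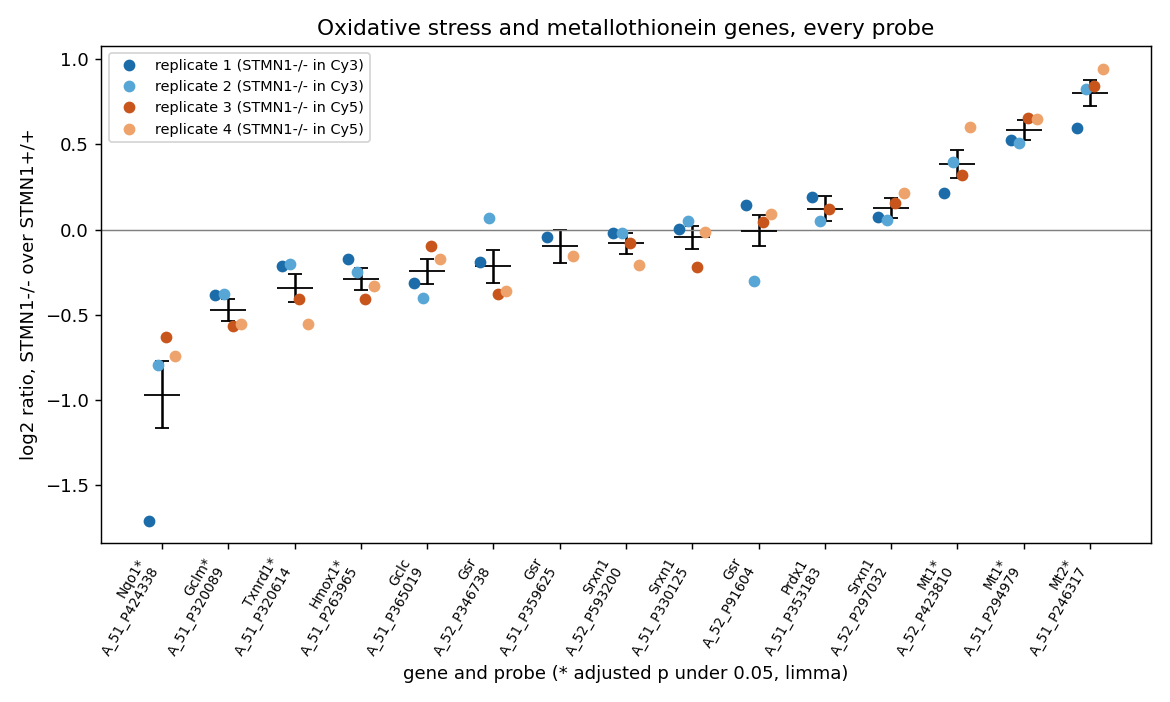
Log2 ratio of STMN1-/- over STMN1+/+ (vertical axis) for each of the 15 probes (horizontal axis, ordered by mean), with 1 point per array coloured by dye orientation, the mean as a horizontal line and its standard error as a bar. Nqo1 lies lowest at a mean of -0.97 with replicate 1 at -1.71, and the points of Mt2 and of both Mt1 probes lie above 0 on all 4 arrays.

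The disrupted gene was examined first. Of its probes on the array, A_52_P319161 had a log2 ratio of -2.16 (SE 0.06, n = 4, adjusted p = 6.0e-04) and A_51_P495641 one of -0.39 (SE 0.07, n = 4, adjusted p = 0.0181), with signal left in STMN1-/- RNA on both. The files do not say whether either probe lies within the disrupted part of the gene, so these values do not by themselves check the genotype. The study's text puts the incomplete loss of array signal down to a probe that also matches another locus, without naming the probe. It reports that qRT-PCR and western blots found neither STMN1 mRNA nor its protein in STMN1-/- MEFs. Over all tested probes 22.4% were called, and the log2 ratios of arrays with the same dye orientation correlated at 0.689 and 0.703, against 0.445 to 0.489 for arrays of opposite orientation. Of 10 fibroblast markers, 8 were higher in STMN1-/- MEFs and 1 was lower, with summed signals of 4178600 to 6587626 in STMN1-/- and 3823754 to 4453393 in STMN1+/+ channels. All 6 tested epithelial markers and 6 of 7 tested neural markers were lower, the other neural marker being higher, and the summed epithelial signal was 54508 to 63858 in STMN1-/- against 81991 to 92540 in STMN1+/+. The summed neural signal was 41274 to 45749 against 50934 to 55722. Macrophage markers split into 3 higher and 2 lower of 8 tested, and endothelial markers into 2 higher and 1 lower of 5. The summed macrophage signal was 128412 to 149927 in STMN1-/- against 153802 to 175128 in STMN1+/+. Its brightest probe, for Lyz2 (mean signal 139863), was not called (log2 ratio -0.23, adjusted p = 0.0856). The summed endothelial signal was 3206 to 3656 against 3221 to 3749. The defining markers Epcam, Gfap, Itgam, Pecam1, Cdh5 and Tie1 were not well above background on any array. Fewer cells of a type and less RNA per cell cannot be told apart in RNA from a whole culture, and the part that such cells have in the results below was not tested.

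The metallothionein genes were up-regulated in STMN1-/- MEFs. Mt1 and Mt2 encode the metallothioneins that most tissues make, and they lie side by side in the mouse genome. The Mt2 probe (chr8:92762515-92762574, build mm7) and the main Mt1 probe (chr8:92769155-92769214) are 6580 bases apart. The main Mt1 probe, A_51_P294979, lies in the coding sequence, and its 60 bases are shown because they make plain what kind of transcript was measured. The capitals mark cysteine codons, 6 of the 19 whole codons in the reading frame that holds most of them.
Mt1 probe: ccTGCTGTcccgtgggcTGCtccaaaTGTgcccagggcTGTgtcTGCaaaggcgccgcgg

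Mt2 signal was 109119, 115952, 113457 and 119374 in STMN1-/- and 72322, 65403, 63266 and 62073 in STMN1+/+ RNA on replicates 1 to 4. Each STMN1-/- value was above every STMN1+/+ value. The share of all tested probes whose values separate in this way was not counted, here or for the genes below. Such a separation therefore only describes the values and does not set these genes apart from others. The log2 ratios of 0.59, 0.83, 0.84 and 0.94 gave a mean of 0.80 (SE 0.08, n = 4, adjusted p = 0.00356 in limma), or 1.74 fold (95% interval 1.52 to 1.99). The mean log2 ratio was 0.71 with STMN1-/- in Cy3 and 0.89 with STMN1-/- in Cy5, so Mt2 was higher in both orientations. Of all tested probes, 4.96% changed by more than Mt2 in either direction. For the other called genes, by brightest probe, this share was 3.18% (Nqo1), 9.36% (Mt1), 14.1% (Gclm), 23.7% (Txnrd1) and 29.8% (Hmox1).

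The main Mt1 probe is printed at 10 places on each array, which gives a measure of technical error that the other genes lack. Its signal was 57466, 59911, 53505 and 60150 in STMN1-/- against 39873, 42221, 33997 and 38318 in STMN1+/+ RNA. The groups did not overlap. Within an array the log2 ratios of the 10 spots had an SD of 0.04 to 0.07, and the lowest single-spot value was 0.43. The array means of 0.53, 0.50, 0.65 and 0.65 gave a log2 ratio of 0.58 (SE 0.06, n = 4, adjusted p = 0.00430 in limma), or 1.5 fold (95% interval 1.35 to 1.67). The means were 0.52 with STMN1-/- in Cy3 and 0.65 with STMN1-/- in Cy5, and the gap between them, 0.14, exceeds the spot SD within an array.

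A second Mt1 probe, A_52_P423810 (chr8:92768988-92769047), ends 107 bases before the main one, and the array annotation ties it to the cDNA BC027262 and not to the RefSeq transcript of Mt1. It read 1349, 1319, 1164 and 1398 in STMN1-/- against 1164, 1002, 931.3 and 922.9 in STMN1+/+ RNA. The ranges of the groups meet at 1164, but within each array the STMN1-/- signal was the higher one. Its log2 ratio was 0.38 (SE 0.08, n = 4, adjusted p = 0.0294), and the call was lost when any single array was left out (adjusted p 0.0527 to 0.102). With normexp and loess the log2 ratio was 0.17 and not called (adjusted p = 0.111), and over all alternatives the call was lost in 8 of 16. The calls of Mt2 and of the main Mt1 probe held under all 16 alternatives tried, with log2 ratios of 0.75 to 0.87 for Mt2 and 0.56 to 0.61 for Mt1. Among these, the deposited values cover only probes that the authors had selected by a test on the same arrays. The log10 column repeats the main ratios, so a call could hardly be lost under either.

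Mt2 exceeded Mt1 on each array, by 0.07, 0.32, 0.19 and 0.29 on the log2 scale. The mean difference was 0.22 (SD 0.12, n = 4), with p = 0.125 in an exact two-sided sign-flip permutation test, the smallest p that 4 arrays allow, and 0.15 after Benjamini-Hochberg adjustment over 6 such pairs. The difference in ratio therefore could not pass the threshold at this number of arrays. The other metallothionein genes on the array, named here outside the naming rule after their values were seen, were not called. Mt3 had a log2 ratio of 0.13 (adjusted p = 0.218) and Mt4 one of -0.27 (adjusted p = 0.508). Mt4 read -1.12 and -0.52 with STMN1-/- in Cy3 but 0.22 and 0.32 with STMN1-/- in Cy5, so that its sign followed the dye.

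The promoter windows of Mt1 and Mt2 are shown as RefSeq gives them for GRCm38.p6, from 250 bases before to 50 bases after the annotated start, because the known metal response of these genes works through such stretches. The windows were searched on both strands for an MRE core, TGCACNC or TGCGCNC, where N is any base, and for an ARE core, TGACNNNGC. An MRE core was found in 25.7% and an ARE core in 12.4% of 32851 mouse promoter windows of the same length. Capitals mark MRE cores, of which Mt1 (chr8:94178839-94179138, plus strand) held 3 and Mt2 (chr8:94172368-94172667, plus strand) held 4. They begin at positions -23, 3 and 21 from the annotated start in Mt1 and at -223, -128, -50 and 5 in Mt2. Positive positions lie after the start. The Mt2 window also held an ARE core at position -79 from the start, left in lower case here.
Mt1 promoter: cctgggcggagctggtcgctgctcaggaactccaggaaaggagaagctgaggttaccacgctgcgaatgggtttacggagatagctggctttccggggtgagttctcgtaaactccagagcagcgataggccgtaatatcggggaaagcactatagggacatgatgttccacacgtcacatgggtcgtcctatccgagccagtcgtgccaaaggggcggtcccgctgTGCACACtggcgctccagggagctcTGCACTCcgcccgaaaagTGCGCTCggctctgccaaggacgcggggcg
Mt2 promoter: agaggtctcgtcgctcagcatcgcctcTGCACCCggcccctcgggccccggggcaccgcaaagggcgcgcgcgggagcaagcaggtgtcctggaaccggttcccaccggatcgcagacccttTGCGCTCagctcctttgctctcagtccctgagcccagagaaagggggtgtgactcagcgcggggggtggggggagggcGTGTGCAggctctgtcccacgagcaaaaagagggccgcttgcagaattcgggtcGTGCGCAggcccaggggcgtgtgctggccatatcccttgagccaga

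**Figure D2:**
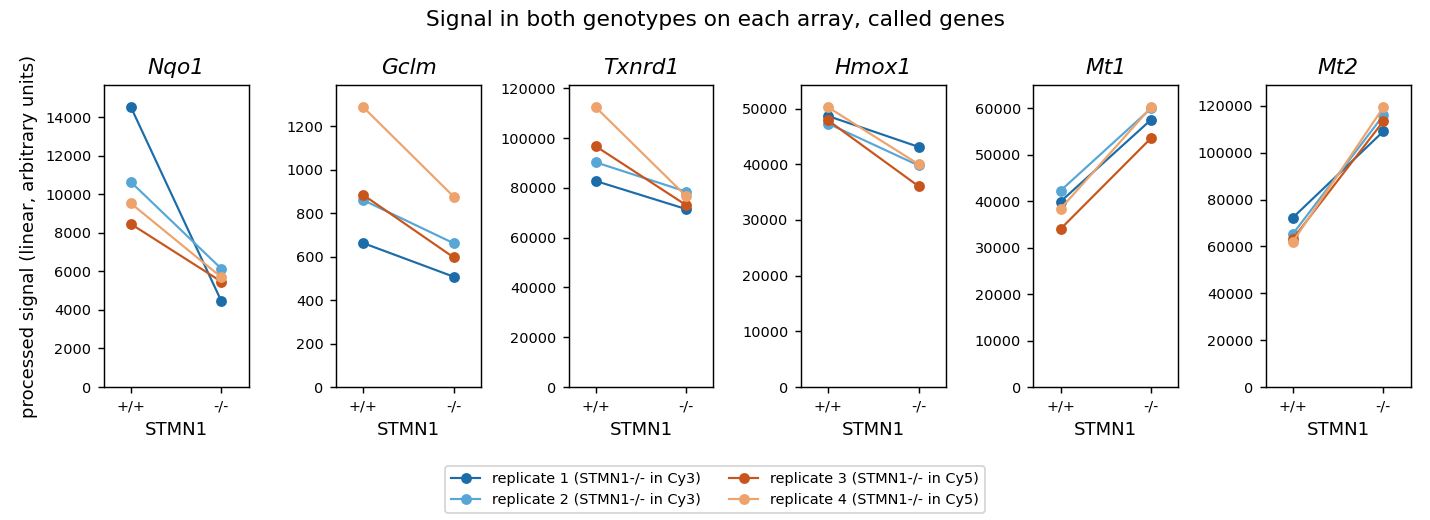
Processed signal (vertical axes, linear arbitrary units from 0, a separate scale for each gene) in STMN1+/+ and STMN1-/- RNA (horizontal axes) for the 6 called genes, with 1 line per array coloured by dye orientation. The lines of Nqo1, Gclm, Txnrd1 and Hmox1 fall and those of Mt1 and Mt2 rise from STMN1+/+ to STMN1-/- on all 4 arrays. Of all tested probes, 53.2% had log2 ratios of both signs.

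Of the 10 genes Nqo1 had the lowest mean ratio. It encodes the NAD(P)H quinone reductase, a flavoenzyme that reduces quinones without forming semiquinone radicals and is a commonly used read-out of NRF2 activity. Its probe (chr8:105988683-105988742, mm7) read 4447, 6134, 5467 and 5694 in STMN1-/- and 14513, 10631, 8456 and 9525 in STMN1+/+ RNA. The groups did not overlap, and replicate 1 had both the highest STMN1+/+ and the lowest STMN1-/- signal. The log2 ratios were -1.71, -0.79, -0.63 and -0.74, with a mean of -0.97 (SE 0.20, n = 4, adjusted p = 0.0267 in limma), or 1.96 fold lower. Without replicate 1 the log2 ratio was -0.72 and still called (adjusted p = 0.0168), whereas without any one of replicates 2, 3 or 4 the adjusted p was 0.0581 to 0.0774. With normexp background correction and loess the log2 ratio was -0.59 and called (adjusted p = 0.0169). The mean log2 ratio was -1.25 with STMN1-/- in Cy3 and -0.69 with STMN1-/- in Cy5.

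Gclm and Gclc encode the modifier and the catalytic subunit of glutamate-cysteine ligase, the rate-limiting enzyme of glutathione synthesis. The Gclm probe matches chr3:122027477-122030112 (mm7), a span of 2636 bases for a 60-mer, so that it crosses an intron. Gclm read 507.2, 661.0, 595.8 and 874.9 in STMN1-/- and 661.7, 859.3, 882.9 and 1286 in STMN1+/+ RNA. The groups overlapped because both channels were brighter on replicate 4, but within each array STMN1-/- was lower. The log2 ratios of -0.38, -0.38, -0.57 and -0.56 gave a mean of -0.47 (SE 0.06, n = 4, adjusted p = 0.00955), and the call held in 15 of 16 alternatives. The exception was normexp with loess, where the log2 ratio was -0.17 (adjusted p = 0.179).

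The Gclc probe (chr9:77835053-77835112) read 4091, 5157, 5703 and 5919 in STMN1-/- and 5077, 6816, 6103 and 6661 in STMN1+/+ RNA, with overlapping groups. Its log2 ratios were -0.31, -0.40, -0.10 and -0.17, below 0 on 4 of 4 arrays, with a mean of -0.25 (SE 0.07, adjusted p = 0.0723), so that Gclc was not called. It was called under 3 of 15 alternatives. Gclm minus Gclc was -0.07 and 0.02 on the log2 scale with STMN1-/- in Cy3 but -0.47 and -0.39 with STMN1-/- in Cy5, so that the gap followed the dye. An exact permutation test of this difference on 4 arrays cannot go below p = 0.125.

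Hmox1 encodes the inducible heme oxygenase, which breaks heme into biliverdin, iron and carbon monoxide and is repressed by BACH1. The probe (chr8:73642229-73642288) read 43128, 39786, 36060 and 40008 in STMN1-/- and 48665, 47308, 47868 and 50233 in STMN1+/+ RNA. The groups did not overlap, and the STMN1+/+ values lay close together. The log2 ratios of -0.17, -0.25, -0.41 and -0.33 gave a mean of -0.29 (SE 0.06, n = 4, adjusted p = 0.0333), or 1.22 fold lower. The call was lost when any single array was left out (adjusted p 0.0668 to 0.117), although the log2 ratio stayed between -0.33 and -0.25.

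Txnrd1 encodes the cytosolic thioredoxin reductase, a selenoenzyme that passes electrons from NADPH to thioredoxin. Its probe (chr10:82438991-82439050) read 71491, 78507, 73072 and 76656 in STMN1-/- and 82781, 90296, 96743 and 112390 in STMN1+/+ RNA, and the groups did not overlap. The log2 ratio was -0.34 (SE 0.08, n = 4, adjusted p = 0.0413), with -0.21 and -0.20 where STMN1-/- was in Cy3 and -0.40 and -0.55 where it was in Cy5. As for Hmox1, no call was made with any single array left out (adjusted p 0.0811 to 0.132).

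The promoter windows of Gclm (chr3:122245307-122245606, GRCm38.p6, plus strand) and of 1 of 3 annotated starts of Txnrd1 (chr10:82858956-82859255, plus strand) are shown because each held an ARE core, here in capitals, among the genes that were down-regulated. Both cores lie on the opposite strand, so that the capitals show the reverse complement. The Gclm core begins at position -134 and the Txnrd1 core at position -92 from the start, and in Gclm it overlaps an MRE core that begins at position -138. In all, 7 of the 10 genes had a promoter window. An ARE core was found for Gclm, Txnrd1, Srxn1, Prdx1 and Mt2 and an MRE core for Mt1, Mt2, Gclm and Srxn1, while the Nqo1 window held neither. A match is a stretch of letters and no measure of binding. Bases outside these short windows were not searched, so a window without a match does not show that Nqo1 or another gene lacks the element.
Gclm promoter: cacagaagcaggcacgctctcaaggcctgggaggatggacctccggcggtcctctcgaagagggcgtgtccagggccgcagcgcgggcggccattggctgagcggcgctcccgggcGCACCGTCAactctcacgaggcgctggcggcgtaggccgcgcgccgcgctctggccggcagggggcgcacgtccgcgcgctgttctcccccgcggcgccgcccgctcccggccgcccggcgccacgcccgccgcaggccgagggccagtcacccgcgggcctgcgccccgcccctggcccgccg
Txnrd1 promoter: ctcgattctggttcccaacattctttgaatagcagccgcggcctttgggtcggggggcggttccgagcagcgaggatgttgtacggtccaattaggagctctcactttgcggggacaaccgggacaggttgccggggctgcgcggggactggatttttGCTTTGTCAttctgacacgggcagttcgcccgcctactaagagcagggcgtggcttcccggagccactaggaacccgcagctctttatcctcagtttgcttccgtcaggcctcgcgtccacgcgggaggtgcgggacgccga

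Gsr, Srxn1 and Prdx1 were not called on any probe. Gsr, glutathione reductase, had 3 probes within chr8:32465210-32465855 (mm7). The brightest, A_51_P359625, gave log2 ratios of -0.04 and -0.15 on the arrays where its spot was usable, replicates 1 and 4, with a mean of -0.10 (SE 0.10, n = 2, adjusted p = 0.546). A_52_P346738 gave -0.19, 0.07, -0.38 and -0.36 (mean -0.22, adjusted p = 0.169). A_52_P91604, which overlaps the first by position, gave 0.14, -0.30, 0.05 and 0.09 (mean -0.01, adjusted p = 0.969). Replicate 2 was the only array above 0 on A_52_P346738 and the only one below 0 on A_52_P91604.

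Srxn1, sulfiredoxin, which repairs overoxidized peroxiredoxins, also had 3 probes. The brightest, A_52_P297032 (chr2:151852040-151852099), read 18474, 19763, 22765 and 25233 in STMN1-/- and 17568, 19006, 20442 and 21756 in STMN1+/+ RNA. It was above 0 on 4 of 4 arrays, with a mean log2 ratio of 0.12 (SE 0.06, adjusted p = 0.194). The other Srxn1 probes had means of -0.08 (A_52_P593200, below 0 on 4 of 4 arrays, adjusted p = 0.394) and -0.05 (A_51_P330125, adjusted p = 0.673), so the probes of this gene differ in sign and none is beyond its spread. Prdx1, the peroxiredoxin whose probe (chr4:116069412-116070182, a span of 771 bases) also crosses an intron, gave 0.19, 0.05 and 0.12 on replicates 1 to 3 (mean 0.12, SE 0.07, n = 3, adjusted p = 0.305), its spot on replicate 4 being an outlier. The 95% intervals of these genes allow a log2 ratio of -0.02 to 0.27 for the brightest Srxn1 probe, -0.08 to 0.32 for Prdx1 and -0.40 to 0.21 for the brightest Gsr probe.

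By position, 5 of the 10 genes (Nqo1, Hmox1, Gsr, Mt1 and Mt2) lie on chromosome 8. They include called genes of both directions, Nqo1 and Hmox1 lower and Mt1 and Mt2 higher.

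The regulators of the pathway were measured on the same arrays. Nfe2l2 itself read -0.02, -0.07, -0.10 and 0.08 on the 4 arrays (mean -0.03, SE 0.06, adjusted p = 0.776), and its other probes were not called either. Keap1 had log2 ratios of 0.24, 0.20, 0.16 and 0.23, with a mean of 0.21, and was not called (adjusted p = 0.0502). With an array left out the adjusted p of Keap1 was 0.123 to 0.159. It was not called with normexp and loess either (0.15, adjusted p = 0.0904), but was called with a dye coefficient (adjusted p = 0.0228). Bach1, the repressor of Hmox1, was up-regulated, with 0.39, 0.71 and 0.68 on replicates 1 to 3 (mean 0.59, SE 0.10, n = 3, adjusted p = 0.0237), but was 0.35 and not called with normexp and loess (adjusted p = 0.109), and kept its call in 2 of 4 fits with an array left out (adjusted p 0.0417 to 0.104). The small MAF gene Maff was down-regulated (-0.54, adjusted p = 0.00555). Nfe2l1, an NRF2 relative that drives proteasome genes, and Sqstm1, the autophagy receptor p62 that binds KEAP1, were up-regulated (0.46 and 0.54, adjusted p = 0.00693 and 0.00394). Mtf1, the metal-sensing factor of the metallothionein genes, was down-regulated by its brightest probe (-0.34, SE 0.06, adjusted p = 0.0165), while its other probes, at -0.20 and -0.19, were not called (adjusted p = 0.101 and 0.704). The Mtf1 call was lost when any single array was left out (adjusted p 0.0593 to 0.0730) and with normexp and loess (-0.21, adjusted p = 0.0649). In all, 3 of 10 regulators were higher, 3 were lower and 4 were not called, beside 13.4% higher and 12.3% lower among all named genes.

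**Figure D3:**
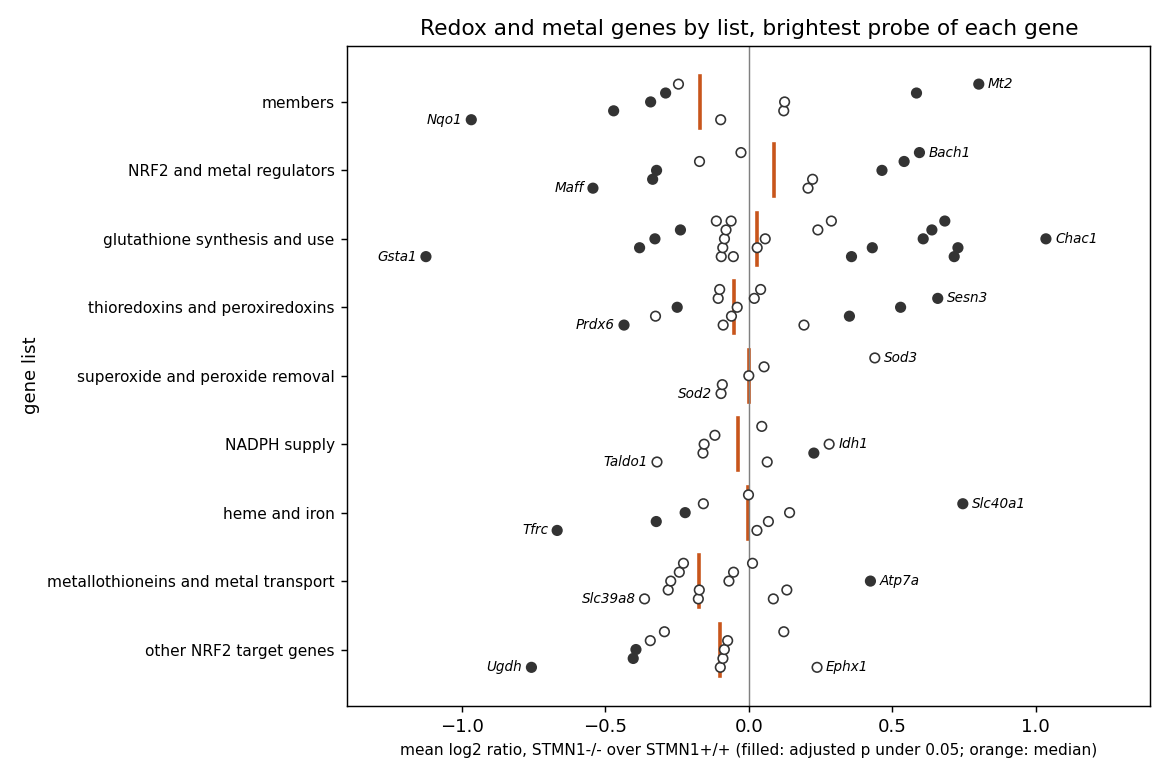
Mean log2 ratio of STMN1-/- over STMN1+/+ (horizontal axis) of every tested gene in the list of the 10 members and in 8 redox and metal lists (vertical axis), each gene by its brightest probe. Filled points had an adjusted p under 0.05, orange lines are list medians, and the lowest and highest gene of each list are named, such as Gsta1 at -1.13 and Chac1 at 1.04 among glutathione genes.

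Across the 8 lists of other redox and metal genes, 93 of 98 genes were tested, of which 17 were higher, 15 were lower and 61 were not called in STMN1-/- MEFs. That is 34.4% called, beside 25.8% of all named genes, with a median log2 ratio of -0.06. The lists, too, were chosen with earlier results of these data known, so these shares are descriptive only. Of the 32 called genes, 17 kept their call with each array left out in turn, 18 with normexp and loess, and 12 under both. The counts of single lists below are likewise to be read beside the 25.8% of all named genes.

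Of 23 tested glutathione genes, 8 were higher and 4 lower. Chac1, a glutathione-degrading enzyme, was 1.04 higher (SE 0.07, n = 4, adjusted p = 0.00141), or 2.05 fold. Slc7a11, the cystine importer that supplies glutathione synthesis, was 0.73 higher (adjusted p = 0.00730). Its mean signal was only 197, and the other Slc7a11 probe, at 0.79, was not called (adjusted p = 0.0721). Among glutathione transferases Gstm2 and Gsta3 were up-regulated (0.68 and 0.72, adjusted p = 0.00221 and 0.00405), while Gsta1 was down-regulated (-1.13, adjusted p = 0.00140). The other Gsta3 probe, at 0.43, was not called (adjusted p = 0.0507), and the mean signal of Gsta1 was only 238. Glutathione transferase genes have close paralogs, and cross-matches of their probes were not analysed here. With normexp and loess Gsta1 was at -0.26, Slc7a11 at 0.13 and Gsta3 at 0.29, none of them called, and Chac1 and Gstm2 were at 0.92 and 0.54 and called.

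Of 14 thioredoxin and peroxiredoxin genes, 3 were higher and 2 lower. Prdx6, a peroxiredoxin that uses glutathione, and Prdx3, the mitochondrial form, were down-regulated (-0.44 and -0.25, adjusted p = 0.00713 and 0.0363), as Prdx1 was not. Sesn3 and Sesn2, sestrins induced by stress, were up-regulated (0.66 and 0.35, adjusted p = 0.0156 and 0.0183). Txnip, the thioredoxin-binding inhibitor, was also up-regulated (0.53, n = 3, adjusted p = 0.0352), with log2 ratios of 0.65, 0.64 and 0.30. Prdx3 and Txnip were not called with any single array left out. With an array left out Sesn2 kept its call in 1 of 4 fits (adjusted p 0.0418 to 0.0786) and Sesn3 in 3 of 4 (adjusted p 0.0391 to 0.0661). Txnip was also not called with normexp and loess (0.33, adjusted p = 0.0561).

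In heme and iron metabolism 3 genes were lower and 1 was higher of 9. Tfrc, the transferrin receptor that brings in iron, was down-regulated (-0.67, adjusted p = 0.00624), as were Alas1, the first enzyme of heme synthesis (-0.32, adjusted p = 0.0174), and Ftl1, the ferritin light chain (-0.22, adjusted p = 0.0410). Slc40a1, the iron exporter ferroportin, was up-regulated (0.75, SE 0.11, adjusted p = 0.0111) but not called with normexp and loess (0.35, adjusted p = 0.0903). The calls of Alas1 and Ftl1 were lost when any single array was left out, and that of Ftl1 also with normexp and loess (-0.13, adjusted p = 0.178).

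Of 11 further NRF2 target genes, 3 were lower and 8 were not called, beside 12.3% of all named genes called lower. Ugdh, which makes UDP-glucuronic acid for conjugation, was at -0.76 (adjusted p = 0.00191), Esd, an esterase that hydrolyses S-formylglutathione, was at -0.40 (adjusted p = 0.00806), and Abcc1, an exporter of glutathione conjugates, was at -0.39 (adjusted p = 0.00875), though its other probes, at -0.11 and -0.17, were not called. Of 8 genes that supply NADPH, Pgls, an enzyme of the pentose phosphate pathway, was called (0.23, adjusted p = 0.0408), and this call was lost when any single array was left out (adjusted p 0.103 to 0.141) and with normexp and loess (adjusted p = 0.0545). Of 13 tested genes of the other metallothioneins and metal transport, Atp7a, the copper-exporting ATPase, was called (0.42, adjusted p = 0.00947), but not with normexp and loess (0.40, adjusted p = 0.0587). None of 5 genes that remove superoxide and peroxide was called by limma or by the methods' t-test with adjustment, and 1 of them had an unadjusted p under 0.05 in limma.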

How the data were processed

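The authors hybridised RNA of both genotypes on 4 Agilent arrays and deposited, per array, intensity values from Feature Extraction 9.5.3.1, which were background-subtracted with spatial detrending and dye-normalized by LOWESS. Those deposited files also give the ratio of Cy5 over Cy3 as log10. Deposited lists also hold log2 ratios of probes the authors selected, 7090 in the list used here as an alternative. A further list was not used. No columns came from other series.

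Control spots and outlier-marked spots were left out, spots of a probe were averaged, and 27759 of 41174 probes were kept, each well above background on at least 1 array in one channel or both, and the 27648 with values on at least 2 arrays were tested. Processed signals were turned by the dye labels into log2 ratios of STMN1-/- over STMN1+/+ and tested against 0 in R 4.3.3 with limma 3.58.1 (lmFit and eBayes, two-sided, Benjamini-Hochberg over all tested probes, threshold 0.05). The fit was also run on simulated data with independent errors per array. That check leaves out the higher correlation of arrays with the same dye orientation, so it does not bear on the calls made here. Also used were jsonlite 2.0.0, data.table (version 1.17.8) and, in Python 3.11.15, pandas 2.3.3, numpy 2.4.6 and matplotlib 3.10.9. The number of arrays limits the precision. All 4 arrays share 1 slide and 1 scan, so no batch could be fitted. Genes were named by RefSeq accession (17971 probes), symbol (4047) or synonym (1891) and represented by the brightest probe. Array coordinates are mm7.

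The members and lists were chosen with earlier results of these data known. Named are every probe of the members, Stmn1, up to 5 called genes of each list by size, and Nfe2l2, Keap1, Bach1 and Mtf1. Lists cover regulators, glutathione, thioredoxins, superoxide removal, NADPH, heme and iron, metals, other NRF2 targets, and markers of fibroblasts, macrophages, endothelium, epithelium and neural cells. Alternatives were normexp (offset 50) with loess, the log10 column, median centring, scaling, no or a stricter dim filter, outliers kept, a dye coefficient, averaged dye-swap pairs, the methods' t-test, the deposited values, each array left out and the median over probes.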

Additional observations from a re-analysis of the deposited data

Results flagged for a closer look

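Nqo1 on replicate 1 stood apart from the other arrays. Its log2 ratio there was -1.71, against -0.79, -0.63 and -0.74 on replicates 2 to 4. The gap to the nearest array was 0.848 of the whole range, above Dixon's 95% critical value for 4 samples. Of 13 member probes with values on 4 arrays, 1 was marked in this way, and chance marks about 1 in 20 groups. On that array the STMN1+/+ signal was 14513 (8456 to 10631 elsewhere) and the STMN1-/- signal 4447 (5467 to 6134 elsewhere). The direction was the same on all 4 arrays, and without replicate 1 the log2 ratio was -0.72 (adjusted p = 0.0168 in limma).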

How the results depend on the processing

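The 2 members called higher, Mt1 and Mt2, stayed 2 in every alternative, while the 4 called lower became 1 with normexp and loess, with no filter on dim probes and with the methods' t-test, and 1 to 2 with an array left out. Across the alternatives Gclm lost its call in 1 of 16, Nqo1 in 5 of 15, and Hmox1 and Txnrd1 in 7 of 16 each. These tallies include the log10 column, which repeats the main ratios. They also include the deposited values, where 3520 probes were called lower and 3459 higher of 7082 matched. That list had been selected by a test on the same arrays, so its calls are no independent check. The Nqo1 probe is absent from the deposited list used, which holds the probes that passed the authors' filters and t-test. Nqo1 therefore has 1 alternative fewer, and this absence is not counted among its losses. Which of the authors' steps removed the probe is not given, and with the methods' t-test here it was not called (adjusted p = 0.112). Among members not called, Gsr A_52_P91604 turned to 0.15 with normexp and loess and ranged from -0.0562 to 0.0931 with an array left out, and Srxn1 A_51_P330125 from -0.0781 to 0.0120, being above 0 without replicate 2 for the former and without replicate 3 for the latter. In the redox and metal lists, 17 genes higher became 9 with normexp and loess and 11 to 15 with an array left out, and 15 lower became 26 with a dye coefficient and 7 to 9 with an array left out. Over all probes, 3086 lower and 3098 higher became 1148 and 991 with normexp and loess, 1871 and 1970 with no dim filter, 5362 and 5362 with a dye coefficient, 1882 and 1975 with the methods' t-test (9091 before adjustment), and 1348 to 1537 and 1460 to 1649 with an array left out. The cause was not tested, other than that an array left out leaves 3 arrays. Each ratio already pairs both genotypes on an array, and no paired analysis was possible beyond that because the arrays form a single group with no shared replicate numbers. The median size of a log2 ratio over all tested probes was 0.17 in the processed signals and 0.08 with normexp and loess.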
